A study of Mus musculus with 16 samples.

Results

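The genes described here encode S100 proteins, small proteins of the EF-hand type, most of which bind calcium. They are S100a1, S100a4, S100a6, S100a8, S100a9, S100a10, S100a11 and S100a13, and were taken by name: 8 of the 22180 genes that the arrays measured with a probe set of 1 gene symbol. Each had 1 such probe set, and the gene identifier of each matched the mouse gene of that symbol. RNA was measured on 16 arrays of myeloid progenitors sorted from the bone marrow of wild-type C57BL/6 mice. For 3 weeks the treated mice drank water with 4 antibiotics (vancomycin, ampicillin, neomycin and metronidazole, each at 1 g/L), and the control mice drank water without them. Both waters held 2% sucrose. All cells were negative for the lineage panel (which included Sca-1, CD11b and Ly6G) and for CD105, and positive for c-Kit. Common myeloid progenitors (CMPs) had intermediate CD16/32 and no CD115, granulocyte-monocyte progenitors (GMPs) had high CD16/32 and no CD115, and committed monocyte progenitors (cMoPs) carried CD115 and Ly6C. There were 3 antibiotic and 3 control arrays of CMPs, 3 antibiotic and 2 control arrays of GMPs, and 3 antibiotic and 2 control arrays of cMoPs. The labels do not say whether an array stands for 1 mouse or a pool, so the p-values below measure the spread between these samples, which may be technical.

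Most S100 proteins act as dimers that bind calcium and then dock onto partner proteins. Inside the cell they touch annexins, the cytoskeleton and enzymes, and some are released and act on Toll-like receptor 4 and the receptor for advanced glycation end products. In the bone marrow the best known are S100A8 and S100A9, which pair as calprotectin, bind zinc and manganese, and fill the cytosol of neutrophils and, to a lesser degree, of monocytes. S100A4 and S100A6 are known for their partners in the cytoskeleton and in protein turnover, S100A10 and S100A11 for annexin A2 and annexin A1.

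All 8 genes lie on chromosome 3. In the RefSeq order of protein-coding genes, S100a1 and S100a13 open the cluster, S100a4, S100a6, S100a8 and S100a9 follow among other S100 genes, and S100a11 and S100a10 stand next to each other beyond a gap of 54 protein-coding genes. The sequences before 7 of the 8 starts were found in RefSeq (build GRCm38.p6). They were searched on both strands for the C/EBP letters TTNNGNAA, the ETS letters GAGGAA, the STAT letters TTCNNNGAA and the TATA letters TATAAA. Of 32851 mouse promoters, 22.7%, 14.5%, 4.09% and 7.57% hold these letters, in that order, in the 150 bases before the start. The S100a8 and S100a9 sequences are shown because both genes encode calprotectin, and S100a4 and S100a6 because they were highest in cMoPs. Each run is the 150 bases up to the start, 5′ to 3′ on the gene's own strand, with matches in capitals. S100a8 lies at chr3:90668921-90669070 (+ strand), S100a9 at chr3:90695722-90695871 (- strand), S100a4 at chr3:90603620-90603769 (+ strand) and S100a6 at chr3:90612744-90612893 (+ strand).
S100a8: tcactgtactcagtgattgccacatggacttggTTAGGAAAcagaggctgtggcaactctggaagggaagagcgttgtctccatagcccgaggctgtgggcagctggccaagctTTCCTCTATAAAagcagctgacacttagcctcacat
S100a9: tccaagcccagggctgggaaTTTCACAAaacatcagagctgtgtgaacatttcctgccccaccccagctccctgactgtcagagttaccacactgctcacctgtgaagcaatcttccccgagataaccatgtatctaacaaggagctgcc
S100a4: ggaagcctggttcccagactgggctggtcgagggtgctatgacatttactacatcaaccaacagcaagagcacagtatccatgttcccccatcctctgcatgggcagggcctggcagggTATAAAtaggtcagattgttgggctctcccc
S100a6: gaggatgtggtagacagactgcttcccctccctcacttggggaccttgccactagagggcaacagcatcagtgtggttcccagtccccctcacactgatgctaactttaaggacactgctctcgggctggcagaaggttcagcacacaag

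The S100a8 run holds a C/EBP match 117 bases before the start, and an ETS match (on the other strand) that directly abuts a TATA match 30 bases before the start. The S100a9 run holds 1 C/EBP match, on the other strand, 130 bases before the start. The S100a4 run holds 1 TATA match, 31 bases before the start, and the S100a6 run none of the 4. None of these runs holds the STAT letters. The search covered 300 bases around each start, and other matches lay outside the printed runs. For S100a9 a TATA match begins at the annotated start itself, and a C/EBP match lies 236 bases before it. For S100a8 an ETS match lies 170 bases before the start, and for S100a4 an ETS match lies past it. In such windows 40.7%, 28.3% and 13.6% of promoters hold the C/EBP, ETS and TATA letters. A match is a description of the letters only.

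S100a1 and S100a13 face away from each other with 104 bases between their starts. Of 27025 mouse genes with such an entry, 4.68% have a head-to-head start as close. The stretch between them (chr3:90514331-90514434, + strand as S100a13 is read, build GRCm38.p6) is shown because both starts border it. It is 58.7% G or C and has none of the 4 motifs.
S100a1 and S100a13: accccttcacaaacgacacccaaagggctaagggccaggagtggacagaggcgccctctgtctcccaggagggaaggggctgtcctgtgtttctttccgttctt

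The values are log2 signals as deposited, so a difference of 1 is a doubling. The arrays' lower quartiles lay between 2.89 and 2.99, and every array of the 8 genes lay well above them. The lowest single value was 6.63. Arrays of the same group correlated at r = 0.985 to 0.991 across genes (14 pairs, and genes are not independent replicates). The array cMoP control 1 stood apart on the fourth principal component, as did CMP control 2. On the third, with 5.15% of the variance, antibiotic arrays lay from -13.88 to -1.82. There cMoP control 2, at -1.39, and CMP control 3, at -0.19, lay next to the antibiotic arrays, and the other controls lay from 10.59 to 20.27. Of 10 gate genes measured, Csf1r and Fcgr3 had the directions of the sort. Csf1r, which encodes CD115, was higher in cMoPs than in GMPs by 1.95 (log2). Fcgr3, a gene of CD16, was higher in GMPs than in CMPs by 3.14. Ly6c2, a gene of Ly6C, was near in GMPs and cMoPs, with means of 12.55 and 12.70. Genes of 2 markers that all sorted cells lacked still differed in RNA. Eng, which encodes CD105, averaged 8.33 in CMPs, 6.71 in GMPs and 7.125 in cMoPs. Itgam, which encodes CD11b, averaged 6.24, 7.35 and 6.375 in the same order. The number of arrays limits the precision. In sorted bulk samples, fewer cells of a kind and less RNA per cell cannot be told apart.

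**Figure D1:**
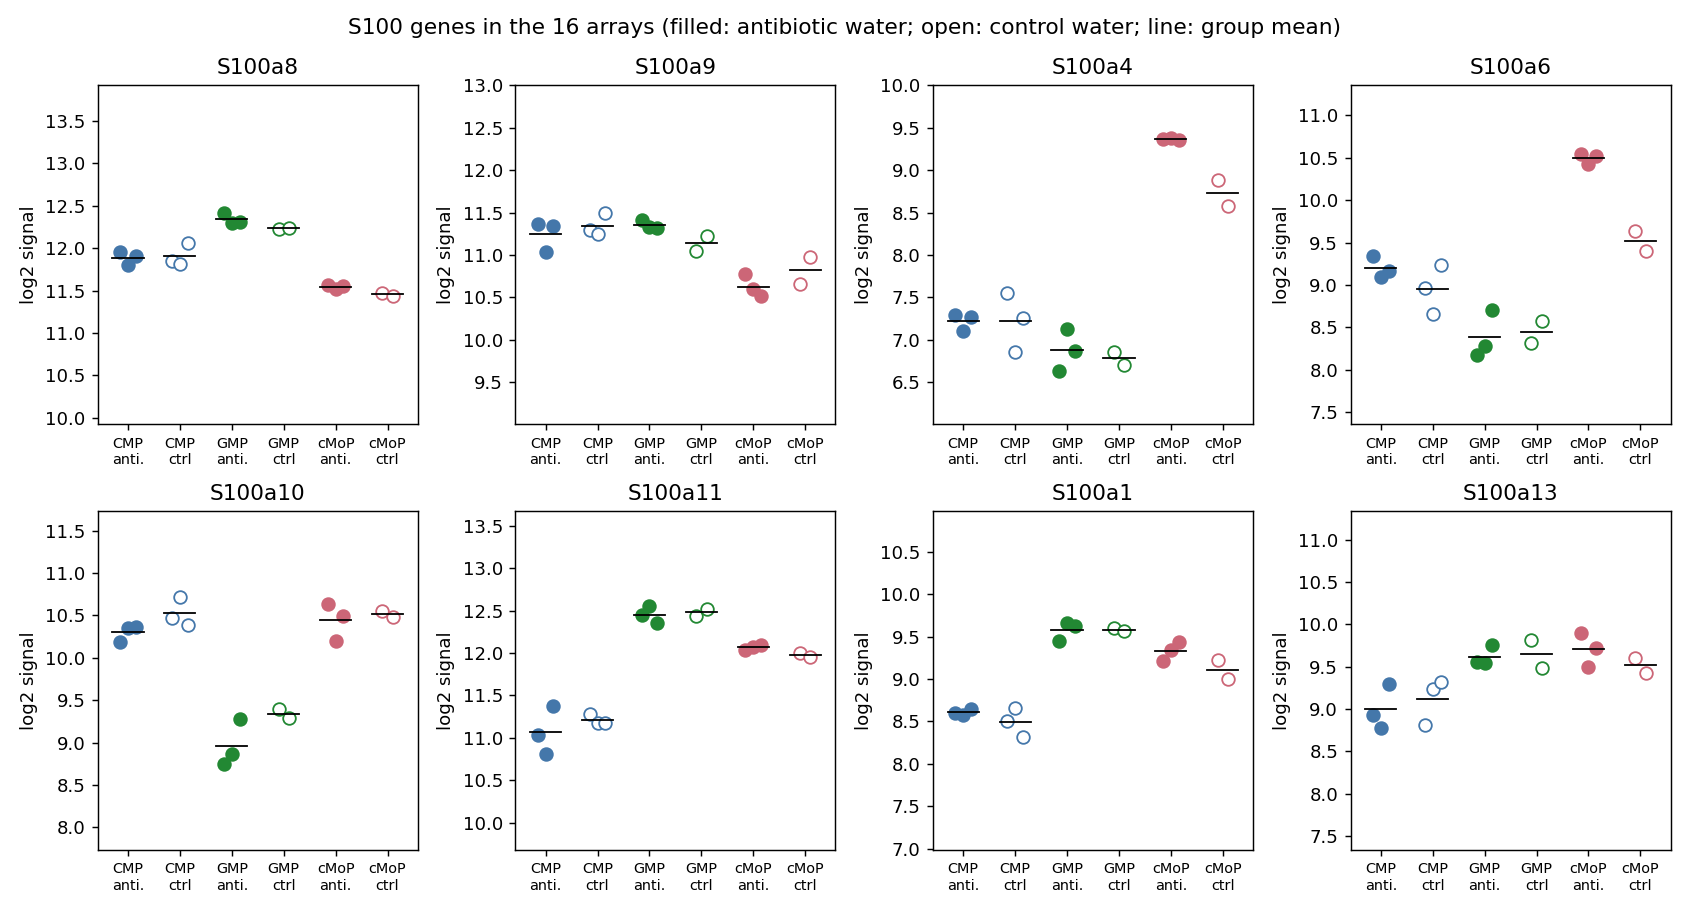
Log2 signal (y axis, 4 units in each panel) of the 8 S100 genes on each of the 16 arrays, by progenitor and water, with antibiotic arrays filled, control arrays open and lines at group means. S100a4 and S100a6 were highest in cMoPs, S100a8, S100a11 and S100a1 in GMPs, and S100a10 was lowest in GMPs.

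Progenitors were compared as means of both waters, with limma and a Benjamini-Hochberg false discovery rate under 0.05 over all 22180 genes. Of the 8 S100 genes, 4 were higher and 3 lower in GMPs than in CMPs, where 7.87% and 8.17% of all genes were called higher and lower. From GMPs to cMoPs the split was 3 higher and 4 lower in cMoPs, against 2.6% and 2.82% of all genes. In cMoPs against CMPs, 5 were higher and 2 lower, against 9.72% and 9.2% of all genes. The median difference of the 8 genes was 0.17 (log2) for GMPs minus CMPs, -0.19 for cMoPs minus GMPs and 0.61 for cMoPs minus CMPs, against 0.03, 0.01 and 0.04 over all genes. The shares over all genes, here and below, include dim genes. When the 11088 genes above the median gene were tested alone, 3676 were called for GMPs against CMPs, against 3558 of all 22180. For cMoPs against GMPs the counts were 1408 and 1202, and for cMoPs against CMPs 4215 and 4195. Bright genes were thus called more often than the shares over all genes say. The 3 comparisons share their arrays in pairs. Each of the 8 genes was called in at least 2 of the 3, and they did not share 1 pattern. Without the array cMoP control 1 the cMoP against GMP count was 4 of 8, with S100a1, S100a9 and S100a11 no longer called (adjusted p = 0.0532, 0.0547 and 0.0595). Over all genes that count was 833 without this array and 1202 with it.

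**Figure D2:**
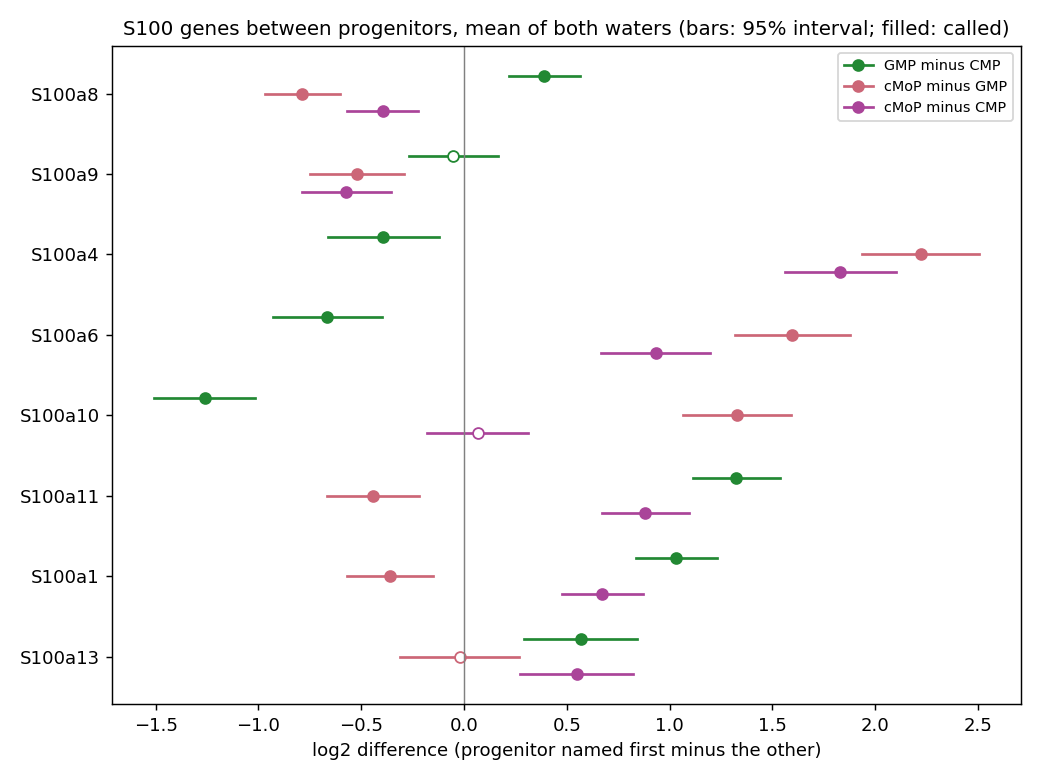
Log2 differences between progenitors (x axis) for the 8 S100 genes (y axis), as means of both waters with bars for 95% intervals, and filled points where called at a rate under 0.05. S100a4, with 2.22 for cMoPs minus GMPs, had the widest difference, and S100a10 is the gene whose cMoP and CMP levels did not differ by the test while GMPs lay below both.

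S100a8, of the calprotectin pair, was higher in GMPs than in CMPs and lowest in cMoPs. S100a9 was not called between GMPs and CMPs and was lower in cMoPs than in both. Whether the 2 genes differed from each other was not tested. In CMPs S100a8 measured 11.95, 11.80 and 11.91 after antibiotics and 11.85, 11.81 and 12.06 in controls. In GMPs it measured 12.41, 12.30 and 12.31 after antibiotics and 12.23 and 12.24 in controls. In cMoPs it measured 11.57, 11.52 and 11.55 after antibiotics and 11.47 and 11.44 in controls. Every GMP array therefore lay above every CMP array, and every cMoP array below every CMP array. S100a8 was higher in GMPs than in CMPs by 0.39 ± 0.08 (SE, a 1.31-fold level, adjusted p = 0.00266). It was lower in cMoPs than in GMPs, with a difference of -0.79 ± 0.09 (SE, adjusted p = 1.84e-05), and lower in cMoPs than in CMPs, with -0.40 ± 0.08 (SE, adjusted p = 0.002).

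S100a9 in CMPs measured 11.37, 11.03 and 11.34 after antibiotics and 11.29, 11.25 and 11.50 in controls. GMP arrays of S100a9 read 11.41, 11.33 and 11.32 after antibiotics and 11.05 and 11.22 in controls. cMoP arrays of S100a9 read 10.77, 10.60 and 10.51 after antibiotics and 10.66 and 10.98 in controls. GMP and CMP arrays overlapped, and all cMoP arrays lay below all others. The difference between GMPs and CMPs was -0.05 ± 0.10 (SE, 95% interval -0.27 to 0.16, adjusted p = 0.803). S100a9 was lower in cMoPs than in GMPs, with -0.52 ± 0.11 (SE, adjusted p = 0.00715), and than in CMPs, with -0.57 ± 0.10 (SE, adjusted p = 0.000598).

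Markers of neutrophil stages were read beside the pair. All 8 genes of a primary granule list were called higher in GMPs than in CMPs, and the list's mean level ran from 11.05 to 11.29 in GMP arrays and from 8.22 to 9.19 in CMP arrays. In cMoPs, 3 of them were called lower than in GMPs, where 2.82% of all genes were. Of 20 genes of late granules and mature neutrophils, 3 were higher and 7 lower in GMPs than in CMPs, against 7.87% and 8.17% of all genes. The list's mean ran from 6.20 to 6.49 in GMP arrays and from 6.18 to 6.55 in CMP arrays. The part of such cells in the S100a8 and S100a9 values was not tested.

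S100a4 and S100a6 were higher in cMoPs than in both other progenitors, and lower in GMPs than in CMPs. S100A4 binds the heavy chain of non-muscle myosin IIA, and S100A6, or calcyclin, binds the calcyclin-binding protein, an adaptor of ubiquitin ligases. S100a4 in CMPs measured 7.29, 7.10 and 7.27 after antibiotics and 7.55, 6.86 and 7.25 in controls. In GMPs it measured 6.63, 7.13 and 6.87 after antibiotics and 6.86 and 6.70 in controls. In cMoPs it measured 9.37, 9.38 and 9.36 after antibiotics and 8.88 and 8.58 in controls. All cMoP arrays lay more than 1 unit above all other arrays, while CMP and GMP arrays overlapped. S100a4 was higher in cMoPs than in GMPs by 2.22 ± 0.13 (SE, a 4.66-fold level, adjusted p = 8.18e-08), and ranked 9 by size among the 577 genes called higher there. It was higher in cMoPs than in CMPs by 1.83 ± 0.13 (SE, a 3.56-fold level, adjusted p = 2.4e-08). Its lower level in GMPs than in CMPs, with -0.39 ± 0.13 (SE, adjusted p = 0.0467), was lost in 18 of 25 alternatives, with adjusted p up to 0.157 without GMP control 2.

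S100a6 in CMPs measured 9.34, 9.10 and 9.17 after antibiotics and 8.96, 8.66 and 9.24 in controls. The GMP values were 8.17, 8.28 and 8.70 after antibiotics and 8.32 and 8.57 in controls. The cMoP values were 10.55, 10.43 and 10.52 after antibiotics and 9.64 and 9.40 in controls. The cMoP arrays lay above all CMP arrays, which overlapped with the GMP arrays in the range of 8.66 to 8.70 only. S100a6 was higher in cMoPs than in GMPs by 1.60 ± 0.13 (SE, a 3.02-fold level, adjusted p = 1.25e-06) and than in CMPs by 0.93 ± 0.12 (SE, adjusted p = 3.81e-05). It was lower in GMPs than in CMPs, with -0.66 ± 0.12 (SE, adjusted p = 0.00117). Of 10 monocyte marker genes, 4 were called higher in cMoPs than in GMPs and none lower, against 2.6% and 2.82% of all genes. The list's mean ran from 7.04 to 7.28 in cMoP arrays and from 6.31 to 6.49 in GMP arrays. Their part in the S100a4 and S100a6 values was not tested.

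S100a10 and S100a11 stand side by side on the chromosome and had opposite calls in GMPs against CMPs. S100A10, also called p11, pairs with annexin A2 at membranes, and S100A11 binds annexin A1. S100a10 in CMPs measured 10.19, 10.35 and 10.36 after antibiotics and 10.47, 10.72 and 10.39 in controls. In GMPs it measured 8.75, 8.86 and 9.28 after antibiotics and 9.39 and 9.29 in controls. In cMoPs it measured 10.64, 10.20 and 10.49 after antibiotics and 10.55 and 10.48 in controls. The GMP arrays were all lower than the lowest CMP or cMoP array, and CMPs and cMoPs overlapped. S100a10 was lower in GMPs than in CMPs, with -1.26 ± 0.12 (SE, a 0.417-fold level, adjusted p = 8.22e-07), and higher in cMoPs than in GMPs by 1.33 ± 0.12 (SE, a 2.51-fold level, adjusted p = 3.78e-06). Between cMoPs and CMPs the difference was 0.07 ± 0.12 (SE, 95% interval -0.18 to 0.31, adjusted p = 0.772).

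S100a11 in CMPs measured 11.03, 10.81 and 11.38 after antibiotics and 11.28, 11.17 and 11.17 in controls. GMP arrays of S100a11 read 12.45, 12.55 and 12.35 after antibiotics and 12.44 and 12.52 in controls. cMoP arrays of S100a11 read 12.04, 12.07 and 12.10 after antibiotics and 12.00 and 11.95 in controls. The 3 progenitors did not overlap, with GMPs highest and CMPs lowest. S100a11 was higher in GMPs than in CMPs by 1.33 ± 0.10 (SE, a 2.51-fold level, adjusted p = 8.35e-08) and in cMoPs than in CMPs by 0.88 ± 0.10 (SE, adjusted p = 6.64e-06). It was lower in cMoPs than in GMPs, with -0.44 ± 0.11 (SE, adjusted p = 0.0197), a call lost in 5 of 25 alternatives (adjusted p up to 0.0801 without GMP control 2). The probe set of S100a11-ps, a pseudogene named here after its values were seen, was also higher in GMPs than in CMPs, by 0.77 ± 0.14 (SE, adjusted p = 0.000856). Whether the probes of the gene and the pseudogene read each other's RNA was not tested.

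S100a1 and S100a13, the head-to-head pair, were both lowest in CMPs. S100A1 is best known from heart and skeletal muscle, where it acts on calcium release, and S100A13 takes part in the export of fibroblast growth factor 1 and interleukin-1 alpha. S100a1 in CMPs measured 8.60, 8.58 and 8.64 after antibiotics and 8.50, 8.66 and 8.31 in controls. In GMPs it measured 9.45, 9.66 and 9.63 after antibiotics and 9.60 and 9.56 in controls. In cMoPs it measured 9.21, 9.34 and 9.44 after antibiotics and 9.22 and 9.0 in controls. All CMP arrays lay below all others, and every cMoP array lay below every GMP array, by as little as 0.01. S100a1 was higher in GMPs than in CMPs by 1.03 ± 0.09 (SE, a 2.04-fold level, adjusted p = 6.27e-07) and in cMoPs than in CMPs by 0.67 ± 0.09 (SE, adjusted p = 5.32e-05). Its lower level in cMoPs than in GMPs, with -0.36 ± 0.10 (SE, adjusted p = 0.0426), was lost in 16 of 25 alternatives, with adjusted p up to 0.166 without cMoP control 2.

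S100a13 in CMPs measured 8.93, 8.78 and 9.30 after antibiotics and 8.81, 9.24 and 9.32 in controls. The GMP values were 9.56, 9.54 and 9.75 after antibiotics and 9.81 and 9.48 in controls. The cMoP values were 9.90, 9.50 and 9.72 after antibiotics and 9.60 and 9.43 in controls. CMP arrays lay below all others, while GMPs and cMoPs overlapped. S100a13 was higher in GMPs than in CMPs by 0.57 ± 0.13 (SE, adjusted p = 0.00553) and in cMoPs than in CMPs by 0.55 ± 0.13 (SE, adjusted p = 0.00599). Between cMoPs and GMPs the difference was -0.02 ± 0.14 (SE, 95% interval -0.31 to 0.27, adjusted p = 0.973).

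Markers of other lineages also differed between progenitors, where 7.87% of all genes were called higher and 8.17% lower in GMPs than in CMPs. All 5 erythroid marker genes were called lower in GMPs than in CMPs, with a list mean of 5.74 to 6.23 in GMP arrays and 8.83 to 9.24 in CMP arrays. The 5 megakaryocyte marker genes were likewise all lower in GMPs (5.01 to 5.66) than in CMPs (6.43 to 7.25). Of 7 eosinophil, basophil and mast cell genes, 5 were higher and 1 lower in GMPs (8.03 to 8.53) than in CMPs (6.71 to 7.26), and all 7 were lower in cMoPs (4.95 to 5.26) than in GMPs. Of 8 dendritic cell genes, 3 were lower and 0 higher both in GMPs (list mean 4.70 to 4.92) and in cMoPs (4.76 to 5.01) than in CMPs (5.26 to 5.66). The part of these cells in the S100 differences was not tested.

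**Figure D3:**
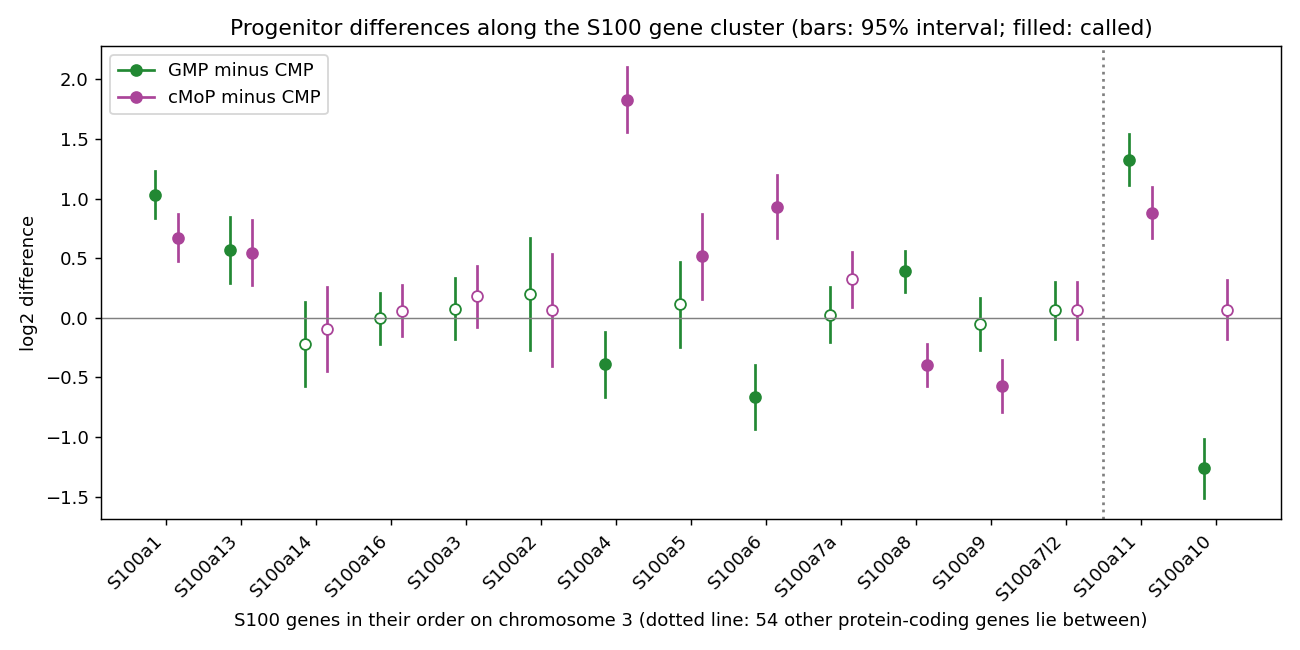
Log2 difference (y axis) of GMPs minus CMPs and of cMoPs minus CMPs for the 15 S100 genes of chromosome 3 in their order (x axis, not to scale), with bars for 95% intervals and filled points where called. Neighbours such as S100a11 and S100a10, at 1.33 and -1.26 for GMPs minus CMPs, differed in direction, whereas S100a1 and S100a13 were both higher in GMPs.

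Beside these 8 genes, 10 further S100 genes and S100pbp, which encodes an S100P-binding protein, were measured. None of these 11 was called between cMoPs and GMPs. In GMPs against CMPs 1 of the 11 was lower, close to the 8.17% of all genes: S100pbp, with -0.44 ± 0.11 (SE, adjusted p = 0.00893). In cMoPs against CMPs S100pbp was lower, with -0.39 ± 0.11 (SE, adjusted p = 0.0165), and S100a5 was higher by 0.52 ± 0.17 (SE, adjusted p = 0.0422); 1 of 11 in each direction is close to the 9.2% and 9.72% of all genes. The S100pbp call was lost without cMoP control 2 (adjusted p = 0.0532), and that of S100a5 in 16 of 24 alternatives (adjusted p up to 0.206, without cMoP control 1). S100a5 averaged 2.96 in cMoPs and 2.44 in CMPs, at or below the arrays' lower quartiles, so neither level is shown to be above background. The other 9 (S100a2, S100a3, S100a7a, S100a7l2, S100a14, S100a16, S100b, S100g and S100z) were not called in any of the 3 comparisons.

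How alike the 8 genes were was described as the root mean square difference of their centred log2 values over the 16 arrays, where 0 is the same pattern. The closest pairs were S100a1 with S100a11 at 0.199, S100a8 with S100a9 at 0.218, S100a1 with S100a13 at 0.285 and S100a4 with S100a6 at 0.422. Among all measured genes, the nearest to S100a4 were Ctss, which encodes the lysosomal protease cathepsin S, at 0.26, Dusp22 at 0.298 and Ahnak at 0.326. Nearest to S100a6 were Ifi30, a lysosomal thiol reductase, at 0.287, Itpripl1 at 0.303 and Lat2 at 0.336. Nearest to S100a10 were Il31ra at 0.236, Zfp385a at 0.272 and Abca3 at 0.272. Nearest to S100a11 were Rasgrp2 at 0.149, Arhgef6 at 0.154 and P4hb at 0.164, and nearest to S100a1 were Cited2 at 0.14, Ncoa4 at 0.168 and Bambi at 0.172. The group means of the remaining 3 genes spanned less than 1 unit, and these genes were not ranked this way.

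Genes of the intracellular partners of S100 proteins, 25 of 29 measured under a single symbol, were counted next. In GMPs against CMPs 8 were higher and 0 lower, in cMoPs against GMPs 5 were higher and 1 lower, and in cMoPs against CMPs 11 were higher and 1 lower. Of all genes, 7.87% and 8.17%, 2.6% and 2.82%, and 9.72% and 9.2% were called higher and lower in that order. The partners' median difference was 0.08, 0.10 and 0.26, against 0.03, 0.01 and 0.04 over all genes. Anxa2, the annexin partner of S100A10, was higher in GMPs than in CMPs by 0.39 ± 0.11 (SE, adjusted p = 0.0243), where S100a10 was lower; this call of Anxa2 was lost in 4 of 25 alternatives, each with 1 array left out (adjusted p up to 0.14, without GMP control 1). In cMoPs it was higher than in GMPs by 1.08 ± 0.12 (SE, adjusted p = 1.74e-05), as S100a10 was. Ahnak, a giant scaffold protein that the S100A10 and annexin A2 complex binds, differed by -0.36 ± 0.13 between GMPs and CMPs (SE, adjusted p = 0.0856) and was higher in cMoPs than in GMPs by 1.88 ± 0.14 (SE, adjusted p = 5.55e-07).

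Anxa1, the annexin partner of S100A11, had the same 3 directions as S100a11. It was higher in GMPs than in CMPs by 2.12 ± 0.13 (SE, adjusted p = 8e-09), lower in cMoPs than in GMPs, with -0.72 ± 0.14 (SE, adjusted p = 0.00434), and higher in cMoPs than in CMPs by 1.41 ± 0.13 (SE, adjusted p = 7.38e-07). Anxa6 was higher in cMoPs than in GMPs by 1.18 ± 0.12 (SE, adjusted p = 1.05e-05). Myh9, the myosin heavy chain that S100A4 binds, differed between cMoPs and GMPs by 0.01 ± 0.11 (SE, adjusted p = 0.983), and Cacybp, the partner of S100A6, by 0.13 ± 0.08 (SE, adjusted p = 0.54). The oxidase genes to which S100A8 and S100A9 deliver arachidonic acid were higher in GMPs than in CMPs: Cybb by 1.69, Ncf1 by 1.74, Ncf4 by 1.27 and Cyba by 1.23, with adjusted p from 0.000151 down to 3.56e-09. They did not follow S100a8 and S100a9 down in cMoPs. From GMPs to cMoPs the means went from 8.60 to 9.77 for Cybb and from 8.84 to 8.77 for Ncf1. Those of Ncf4 went from 7.98 to 8.31, and those of Cyba from 9.69 to 9.84.

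**Figure D4:**
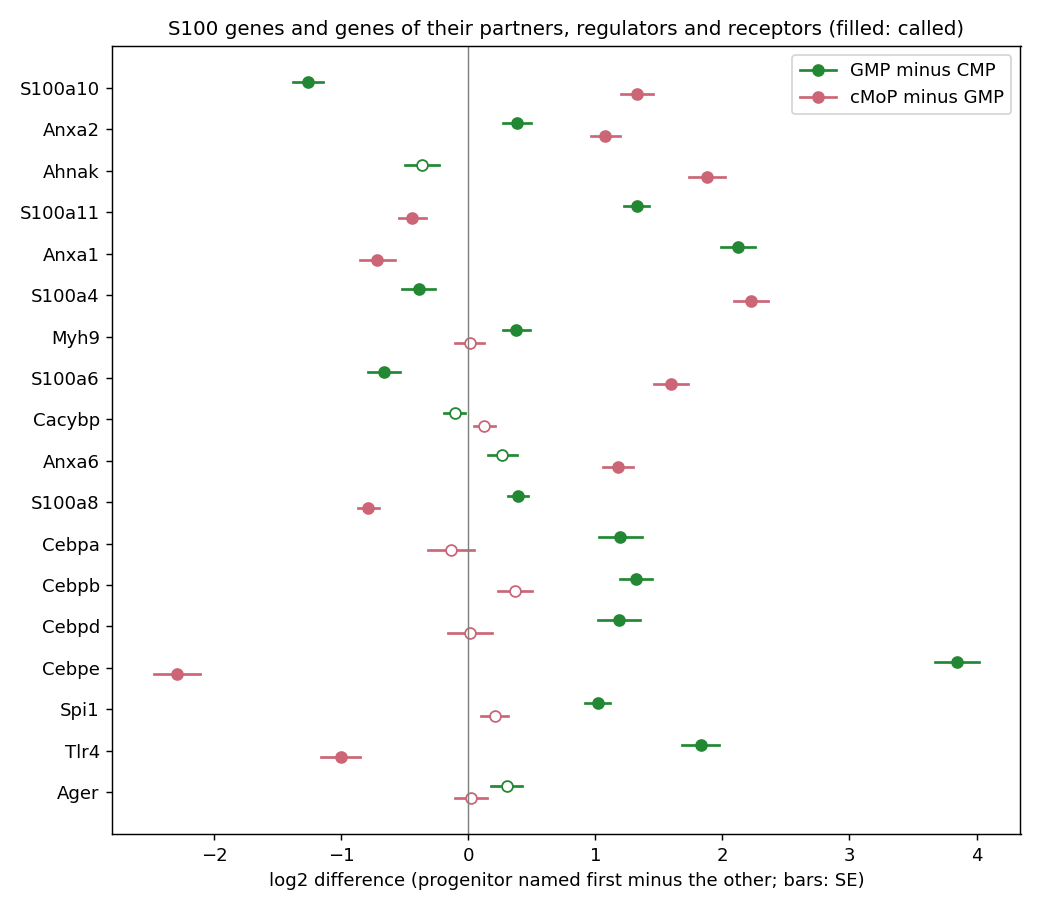
Log2 difference (x axis, bars for SE) of GMPs minus CMPs and of cMoPs minus GMPs for S100 genes and for genes of their partners, regulators and receptors (y axis), filled where called. Anxa1 had the directions of S100a11, with 2.12 and -0.72, while Anxa2 was higher at both steps and S100a10 lower at the first.

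Receptors and signal partners of released S100 proteins numbered 12, all measured. In GMPs against CMPs 7 were higher and 1 lower, in cMoPs against GMPs 3 were higher and 1 lower, and in cMoPs against CMPs 9 were higher and 1 lower. The same shares over all genes were 7.87% and 8.17%, 2.6% and 2.82%, and 9.72% and 9.2%, so the 1 of 12 lower in each comparison against CMPs is close to the background. The median difference was 0.53, 0.11 and 0.73 in that order, against 0.03, 0.01 and 0.04 over all genes. Tlr4, the Toll-like receptor on which calprotectin acts, was higher in GMPs than in CMPs by 1.83 ± 0.14 (SE, adjusted p = 1.38e-07) and lower in cMoPs than in GMPs, with -1.0 ± 0.15 (SE, adjusted p = 0.000496). Ager, the receptor for advanced glycation end products, differed by 0.30 ± 0.12 between GMPs and CMPs (SE, adjusted p = 0.112). Cd36, a fatty acid transporter, was lower in GMPs than in CMPs, with -1.90 ± 0.23 (SE, adjusted p = 1.65e-05). It averaged 2.45 in GMPs and 4.35 in CMPs, and the GMP mean lay under the arrays' lower quartiles, where a signal above background was not shown, so the size of this difference is uncertain. Alcam, an adhesion molecule, Cd69, an activation antigen, Cd14, a co-receptor of Toll-like receptors, and Tlr2 were higher in GMPs than in CMPs by 1.23, 1.12, 0.85 and 0.57, with adjusted p from 3.94e-07 to 0.0224. All 4 were also higher in cMoPs than in CMPs, by 1.16, 1.23, 1.08 and 0.98. The call of Cd14 between GMPs and CMPs was lost in 7 of 24 alternatives (adjusted p up to 0.0742, with the unmoderated analysis of variance). Cd14 was dim, with means of 3.39 in CMPs and 4.24 in GMPs. The CMP mean lay below the arrays' medians, of which the lowest was 4.04, so the sizes of the Cd14 differences are uncertain.

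Of 11 transcription factors with a known role at S100a8 and S100a9, 6 were higher and 2 lower in GMPs than in CMPs. The count of 2 lower fell to 1 in 15 of 25 alternatives. In cMoPs against GMPs 0 were higher and 3 lower, and in cMoPs against CMPs 7 were higher and 2 lower. Against these stood 7.87% and 8.17%, 2.6% and 2.82%, and 9.72% and 9.2% of all genes, higher and lower in the same order. The median difference was 0.82, -0.13 and 1.06, against 0.03, 0.01 and 0.04 over all genes. Cebpe, a factor of the granulocyte line, was higher in GMPs than in CMPs by 3.85 ± 0.17 (SE, adjusted p = 2.33e-10) and lower in cMoPs than in GMPs, with -2.29 ± 0.18 (SE, adjusted p = 9.52e-07). Cebpa, Cebpb, Cebpd and Spi1 were higher in GMPs than in CMPs by 1.20, 1.32, 1.19 and 1.02, and none of these 4 was called between cMoPs and GMPs. Stat3 and Klf5 were lower in cMoPs than in GMPs, with -0.58 ± 0.11 and -0.85 ± 0.17 (SE, adjusted p = 0.00355 and 0.00485). Irf7 was lower in GMPs than in CMPs, with -1.30 ± 0.20 (SE, adjusted p = 0.000204).

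Other genes with EF-hand domains, 21 of 25 measured under a single symbol, were counted as a comparison for calcium binding of the same kind. In GMPs against CMPs 8 were higher and 1 lower, in cMoPs against GMPs 0 were higher and 4 lower, and in cMoPs against CMPs 6 were higher and 1 lower. The background over all genes was 7.87% and 8.17%, 2.6% and 2.82%, and 9.72% and 9.2%, higher and lower in the same order. The median difference of these 21 genes was 0.24, -0.08 and 0.13, against 0.03, 0.01 and 0.04 over all genes. Gca, which encodes grancalcin, a protein of neutrophil granules, was higher in GMPs than in CMPs by 3.26 ± 0.23 (SE, adjusted p = 3.31e-08) and lower in cMoPs than in GMPs, with -1.66 ± 0.24 (SE, adjusted p = 0.000326). Nucb2, which encodes nucleobindin 2, was higher in GMPs than in CMPs by 3.0 ± 0.13 (SE, adjusted p = 1.37e-10). Plcb2, a phospholipase C, was higher in GMPs than in CMPs by 1.14 ± 0.10 (SE, adjusted p = 3.32e-07) and lower in cMoPs than in GMPs, with -1.04 ± 0.10 (SE, adjusted p = 6.02e-06). Rasgrp2, also the gene nearest in pattern to S100a11, was higher in GMPs than in CMPs by 1.34 ± 0.09 (SE, adjusted p = 1.74e-08). Lcp1, an actin-bundling plastin, and Efhd2 were higher by 0.59 ± 0.08 and 0.55 ± 0.10 (SE, adjusted p = 4.56e-05 and 0.000617).

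Antibiotic and control water were compared within each progenitor and as the mean over the 3 progenitors. The false discovery rate under 0.2 is the one the study states, but the test was limma, not the stated analysis of variance. S100a6 in cMoPs was the single S100 call. Its 3 cMoP arrays after antibiotics, at 10.43 to 10.55, lay above the 2 control arrays, at 9.40 and 9.64. The group means were 10.5 ± 0.06 after antibiotics and 9.52 ± 0.17 in controls (SD, n = 3 and 2), a difference of 0.98 ± 0.19 (SE, a 1.97-fold level, 95% interval 0.58 to 1.38, limma adjusted p = 0.129). In cMoPs 0.131% of all genes were called, 29 in number, and S100a6 ranked 12 by size among the 20 called higher. The call did not hold in all settings. It was lost without any 1 of the 5 cMoP arrays (adjusted p = 0.218 to 0.449), without CMP antibiotic 2 (adjusted p = 0.212), and in 4 other alternatives (adjusted p = 0.269 to 0.36). Among these 4 was the unmoderated analysis of variance of the stated design. The difference itself stayed between 0.86 and 1.10 throughout.

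In the same cMoPs, S100a4 measured 9.36 to 9.38 after antibiotics and 8.58 and 8.88 in controls, without overlap. The share of all genes without overlap was not counted. The S100a4 difference of 0.64 ± 0.19 (SE, 95% interval 0.24 to 1.04) was not called (adjusted p = 0.588). In CMPs the S100a6 difference was 0.25 ± 0.17 and in GMPs -0.06 ± 0.19 (SE, adjusted p = 0.774 and 0.97). The test of whether the water effect differed between progenitors did not call S100a6 (adjusted p = 0.694) or S100a4 (adjusted p = 0.865), nor any other of the 8 genes, so an effect particular to cMoPs was not shown. Of all genes 0.00451% were called there, which is 1 gene. Late granule and mature neutrophil genes stood apart by water in cMoPs as S100a6 did: the list's mean ran from 6.07 to 6.41 after antibiotics and from 5.94 to 5.96 in controls, and 0 of its 20 genes were called. Of these, Stfa2 and Stfa3 lay below the lower quartile in control cMoPs. Among the 20 genes Lcn2, which encodes lipocalin 2, had a difference of 0.48 ± 0.15 (SE, adjusted p = 0.617). An unadjusted p under 0.05 was found for 4 of the 20 and for 1375 of all 22180 genes. The monocyte list did not separate the waters in cMoPs, with 7.04 to 7.28 after antibiotics and 7.06 to 7.11 in controls. Other lists that stood apart by water in cMoPs were the primary granule genes (10.36 to 10.57 after antibiotics, 10.15 to 10.31 in controls), the erythroid genes (5.58 to 5.67 after antibiotics, 5.49 to 5.53 in controls) and the gate genes (8.01 to 8.07 after antibiotics, 8.10 in both controls). Of the 8 primary granule genes 1 was called, Fcnb, which encodes ficolin B, with 1.17 ± 0.23 (SE, adjusted p = 0.14), a call lost in 9 of 24 alternatives (adjusted p up to 0.998 without cMoP control 1, where the difference was 0.82). The macrophage, dendritic cell, B lineage, T and NK cell and megakaryocyte lists overlapped by water in cMoPs. So did the list of eosinophil, basophil and mast cell genes. How often list means separate with so few arrays was not tested, and some of the gaps were narrow. The part of these lists in the S100a6 value was not tested.

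As a mean over the 3 progenitors, 0 of the 8 genes were called with limma, where 0.514% of all genes were. Of all 22180 genes 2115 had an unadjusted p under 0.05, and of the 8 genes 3 did. These were S100a6 with 0.39 ± 0.10 (SE, adjusted p = 0.244), S100a4 with 0.25 ± 0.11 (SE, adjusted p = 0.488) and S100a10 with -0.23 ± 0.10 (SE, adjusted p = 0.488). S100a6 was called in 3 of 23 alternatives: among genes above the median gene (adjusted p = 0.141), with trended and robust variances (adjusted p = 0.0794) and without CMP control 3 (adjusted p = 0.169). In CMPs 0 of the 8 were called, where 0.0406% of all genes were. None of the 8 had an unadjusted p under 0.05, where 1606 of all 22180 genes did. In GMPs 0 were called, where 0.0721% of all genes were. An unadjusted p under 0.05 was found for 1662 of all 22180 genes and for 1 of the 8. This was S100a10, with 8.96 ± 0.28 after antibiotics and 9.34 ± 0.07 in controls (SD, n = 3 and 2), a difference of -0.38 ± 0.17 (SE, adjusted p = 0.657). S100a10 after antibiotics lay below all controls in GMPs and in CMPs, and overlapped with them in cMoPs. How many of all genes separated so was not counted. The marker genes called for water as a mean over progenitors were Car1, Cpa3, Fcnb and H2-Ab1, higher by 0.86, 0.81, 0.62 and 0.43, and F13a1, Ccr2 and Cx3cr1, lower, with -0.43, -0.47 and -0.49 (adjusted p = 0.00517 to 0.192). Those of Car1 and Cpa3 held in all 23 alternatives, and the others were lost in 6 to 16. In CMPs 1 marker gene was called, F13a1 with -1.15 ± 0.17 (SE, adjusted p = 0.0301, lost in 2 of 24 alternatives, with adjusted p up to 0.516 with CMP arrays alone). Some marker lists stood apart by water in CMPs. The monocyte list ran from 5.51 to 5.66 after antibiotics and from 5.85 to 5.91 in controls, and the gate genes from 7.07 to 7.26 and from 7.28 to 7.43. The dendritic cell list ran from 5.45 to 5.66 after antibiotics and from 5.26 to 5.42 in controls. The T and NK cell list ran from 4.45 to 4.54 and from 4.19 to 4.32. The other marker lists overlapped by water in CMPs, and how often list means separate with so few arrays was not tested. The part of such cells in the S100 values was not tested.

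**Figure D5:**
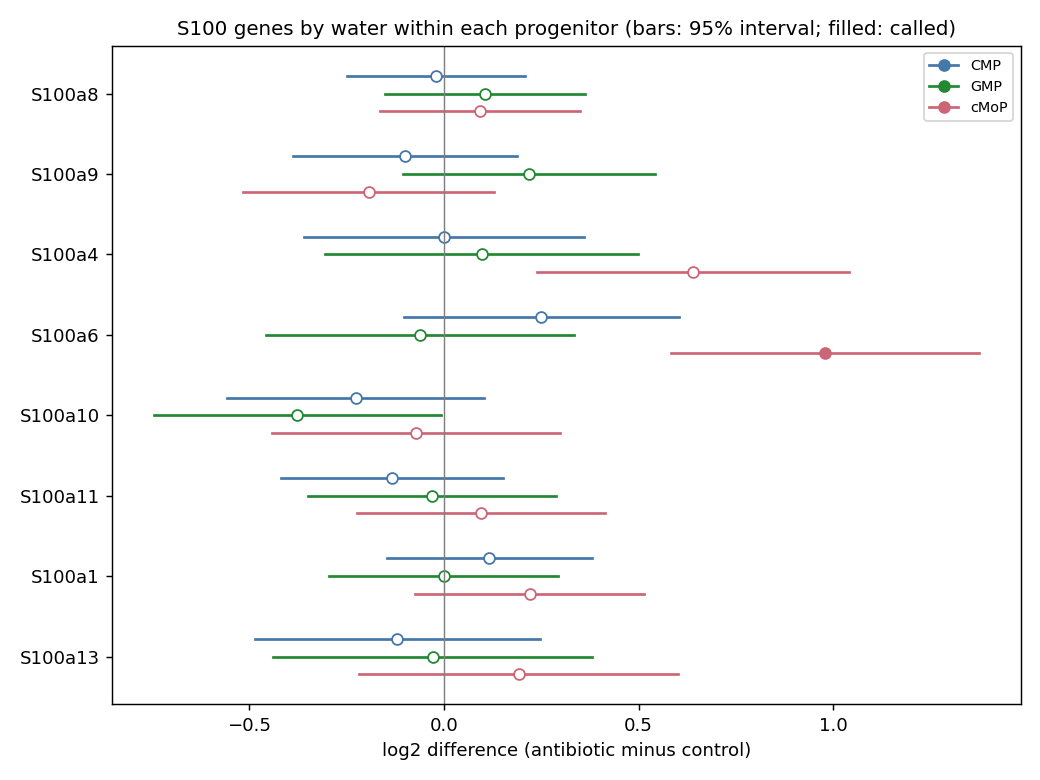
Log2 difference of antibiotic minus control water (x axis) for the 8 S100 genes (y axis) within each progenitor, with bars for 95% intervals and a filled point where called at a rate under 0.2. S100a6 in cMoPs, at 0.98, is the filled point, and next to it by size is S100a4 in cMoPs at 0.64.

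S100a8 and S100a9 were not called for the water in any progenitor. The S100a8 difference was -0.02 ± 0.11 for CMPs, 0.11 ± 0.12 for GMPs and 0.09 ± 0.12 for cMoPs (SE), with 95% intervals that ended at 0.36 on the high side and at -0.25 on the low side. S100a9 differed by -0.10 ± 0.14, 0.22 ± 0.15 and -0.19 ± 0.15 in the same order (SE), with intervals from -0.52 to 0.54. S100a11 and S100a13 differed by at most 0.19 in either direction in any progenitor, and S100a1 by at most 0.22. S100a8 after antibiotics lay above all controls in GMPs and in cMoPs, S100a9 did so in GMPs and S100a11 in cMoPs. Dim S100 genes with means near the arrays' lower quartiles separated too. After antibiotics S100b lay above all controls in GMPs, and S100z lay below all controls in cMoPs. How many of all genes separated by water was not counted, so no background stands beside these separations. The misses of the threshold do not show that the levels were equal.

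Among the lists, Ly96, which encodes the MD-2 partner of Toll-like receptor 4, was the single gene of the receptor, partner, transcription factor and EF-hand lists called for the water. It averaged 4.20 ± 0.24 in GMPs after antibiotics and 5.25 ± 0.25 in control GMPs (SD, n = 3 and 2), a difference of -1.04 ± 0.20 (SE, limma adjusted p = 0.184). The call was lost in 15 of 24 alternatives, with adjusted p up to 0.581 without GMP antibiotic 2 and with differences from -1.22 to -0.87. In CMPs its difference was 0.56 ± 0.18 (SE, adjusted p = 0.492), and the test of a difference between progenitors gave an adjusted p of 0.269. Marker lists also stood apart by water in GMPs: the erythroid list ran from 6.16 to 6.23 after antibiotics and from 5.74 to 5.90 in controls, and the megakaryocyte list from 5.59 to 5.66 after antibiotics and from 5.01 to 5.47 in controls. The eosinophil, basophil and mast cell list ran from 8.26 to 8.53 after antibiotics and from 8.03 to 8.21 in controls, and the primary granule list from 11.19 to 11.29 after antibiotics and from 11.05 to 11.06 in controls. The dendritic cell list ran from 4.78 to 4.92 after antibiotics and from 4.70 to 4.72 in controls. The gate genes were the lower ones after antibiotics, with 7.78 to 8.01 against 8.04 to 8.10 in controls. Of these lists' genes 1 was called in GMPs, Car1, an erythroid carbonic anhydrase, with 1.78 ± 0.20 (SE, adjusted p = 0.00308), lost with GMP arrays alone (adjusted p = 0.35). The late neutrophil, monocyte, macrophage, B lineage and T and NK cell lists overlapped by water in GMPs. How often list means separate with so few arrays was not tested. The part of these lists in the Ly96 value was not tested.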

How the data were processed

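RNA of 16 samples was amplified, labelled with biotin and measured on arrays. Values are log2 signals per probe set, used as deposited; the submitters' processing notes name Transcriptome Analysis Console and Partek. Versions, summarisation and normalization: not given in the sources used here. There were no detection calls to use. Probe sets with 1 gene symbol (23521 of 41345) gave 22180 genes, by the brightest probe set per gene and with no filter on dim genes. Limma 3.58.1 in R 4.3.3 fitted a mean per group of progenitor and water (10 residual degrees of freedom) with eBayes, and was tested on simulated data. Adjusted p are Benjamini-Hochberg values over all genes, two-sided, called under 0.05 between progenitors and under 0.2 for water, as the stated design does. The S100 genes and the lists were chosen with earlier results of these data known. Genes named were the S100 genes and, for S100 genes whose group means span 1 unit or more, the 3 nearest genes; of each list, direct partners, genes called for water and up to 6 with the largest progenitor differences; of the marker lists, genes called for water. Anxa6, Cyba, Stat3, Klf5, Lcn2, S100a11-ps, Ly6c2, Eng and Itgam were named after their values were seen. Promoter sequences and gene order come from RefSeq, assembly GRCm38.p6; 7 of 8 genes matched. Alternatives were the mean of probe sets, every probe set, brighter genes, trended and robust variances, an unmoderated analysis of variance (the stated design), quantile normalization, subsets of progenitors, the replicate number as a block, and each array left out.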

Additional observations from a re-analysis of the deposited data

How the results depend on the processing

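Each result of the 8 S100 genes, the differences printed for other genes, and the list counts between progenitors were recomputed under up to 25 alternatives; mean levels of marker lists and likeness were not. The number of S100 genes called between progenitors moved by more than 1.5 times once: leaving out 1 array at a time gave 4 to 7 of the 8 genes for cMoPs against GMPs, with 4 without cMoP control 1. For water in cMoPs, 1 gene was called, and 0 with every probe set tested, with the unmoderated analysis of variance, with arrays of the compared progenitors alone and with the replicate block; leaving out arrays gave 0 to 1. For water as a mean over progenitors, 0 were called, and 1 among genes above the median gene and with trended and robust variances; leaving out arrays gave 0 to 1. Over all genes, 29 were called for water in cMoPs (3 without cMoP control 1, 226 without cMoP control 2, and 2 with arrays of the compared progenitors alone). For water in CMPs 9 were called (1 with arrays of the compared progenitors alone, 61 with trended and robust variances), and in GMPs 16 (0 by limma with arrays of the compared progenitors alone, where 1578 had an unadjusted p under 0.05, and 42 without GMP antibiotic 3). As a mean over progenitors 114 were called (41 without cMoP antibiotic 1 and without CMP antibiotic 1, 353 among genes above the median gene). Of list counts given between progenitors, 7 late neutrophil genes lower in GMPs than in CMPs ran from 4 to 7, 4 EF-hand genes lower in cMoPs than in GMPs ran from 2 to 5, and counts of 0 to 2 moved by at most 1. The cause of these moves was not tested, except that fewer arrays or fewer genes entered where so named.

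Differences close to 0 changed sign with single arrays left out. For cMoPs minus GMPs S100a13 ran from -0.10 to 0.0625. For antibiotic minus control as a mean, S100a9 ran from -0.0783 to 0.0283, S100a11 ran from -0.0739 to 0.0211 and S100a13 ran from -0.0406 to 0.0694. In CMPs S100a8 ran from -0.0683 to 0.0567 and S100a9 ran from -0.16 to 0.0083. In GMPs S100a4 ran from -0.03 to 0.22, S100a6 ran from -0.22 to 0.0633, S100a11 ran from -0.08 to 0.02 and S100a13 ran from -0.19 to 0.14. In cMoPs S100a10 ran from -0.17 to 0.05. Among other genes, Myh9 for cMoPs minus GMPs ran from -0.0292 to 0.0708, with -0.0127 under quantile normalization.

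The labels do not say whether equal replicate numbers mark the same mouse or pool. Over 15 pairs of the same number and water the correlation of deviations was -0.049 to 0.104 (median 0.0286), with 1 over 0.1. Over 21 pairs of the same number and different water it was -0.028 to 0.0295 (median -0.0008). Pairs of different numbers were not compared, and numbers may not match between groups, so whether arrays share a mouse or pool was not settled. With the replicate block the mean water difference of S100a13 was -0.0389. Values near the arrays' lower quartiles have no detection calls, so they are not shown to be above background. Groups of 2 control arrays limit the water comparisons in GMPs and cMoPs.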
